A study of Mus musculus with 8 samples.

Results

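Solute carriers are the membrane proteins that move ions, metals, sugars, amino acids, nucleosides and other small molecules across the cell surface and the membranes of organelles. The genes described here are the 105 solute carrier genes with a mean of at least 10 TPM over all 8 libraries of a bulk RNA-seq study of mouse liver macrophages, taken from 363 genes named Slc, a family number, a letter and a member number, among 32903 genes with a matched transcript. TPM measures transcript abundance per length as a part of 1 library's total; the number of reads behind a value is therefore unknown. The rule left out 10 genes by name (Slc40a1, Slc11a1, Slc48a1, Slc16a9, Slc2a1, Slc2a3, Slc16a1, Slc16a3, Slc7a11 and Slc4a1), and 248 genes lay below 10 TPM. The members were chosen by their mean level over all libraries, so that level is a description. Of the 105 members, 84 reached 10 TPM in the mean of both groups, 5 only in that of the CCl4 libraries and 16 only in that of the naive libraries.

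The 3 CCl4 libraries came from wild-type mice given carbon tetrachloride, a hepatotoxin that scars the liver, at 0.75 mL/kg in corn oil 3 times a week for 8 weeks. The 5 naive libraries came from untreated wild-type mice. All were labelled as Kupffer cells, which are macrophages that reside in the liver, and the study compared these cells between fibrotic and naive livers. The CCl4 libraries are numbered 1, 2-4 and 3, and the labels do not say whether 2-4 is a pool, nor whether the libraries are from different animals. A p-value here covers the spread between libraries alone, which may be technical in part.

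Kupffer cells take up and digest red cells, lipoproteins and debris from the blood, and solute carriers export the metals, amino acids, nucleosides and sugars that digestion in the lysosome sets free. Others supply mitochondria and the Golgi, or set the pH and ion gradients that drive uptake. A carrier's family number groups proteins by sequence, so members of 1 family can sit in different membranes.

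The labelled cell type was checked on its markers. All 8 Kupffer cell markers were lower in CCl4 libraries (median log2 fold change -3.73), with a summed level of 253.8 to 337.1 TPM, against 2368 to 5062 TPM in naive libraries. All 12 markers of sinusoidal endothelium were lower as well, at 396.5 to 630.2 TPM in CCl4 and 5579 to 11237 TPM in naive libraries. Of 7 monocyte markers tested 4 were higher and none lower, and their sum was 687.4 to 1015 TPM in CCl4, against 136.2 to 243.0 TPM in naive libraries. Erythroid markers summed to 36.3 to 77.7 TPM in CCl4 libraries (all 3 markers tested were lower), to 156.2 TPM in naive library 5 and to 2644 to 4944 TPM in the other naive libraries. Hepatocyte markers (5 of 9 lower) summed to 226.1 to 853.2 TPM in CCl4 and 590.0 to 1474 TPM in naive libraries, and lymphocyte markers (2 of 7 lower) to 50.7 to 146.8 TPM in CCl4 and 120.9 to 143.9 TPM in naive libraries. Stellate cell markers (2 of 6 higher, 1 lower) summed to 95.7 to 106.1 TPM in CCl4 and 27.1 to 80.8 TPM in naive libraries, cholangiocyte markers (1 of 4 higher) to 7.47 to 12.3 TPM in CCl4 and 4.26 to 13.1 TPM in naive libraries, and neutrophil markers to 1.23 to 4.704 TPM in CCl4 and 1.94 to 5.47 TPM in naive libraries. The neutrophil marker Ly6g was at 0 in every library. Of 8 genes that respond to tissue dissociation 7 were higher, with sums of 2696 to 4042 TPM in CCl4 and 1304 to 2016 TPM in naive libraries. These marker levels differ between the same libraries as every carrier result that follows, and their part in it was not tested. In bulk RNA, fewer cells of a type and less RNA per cell cannot be told apart.

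By limma on log2(TPM + 1), with Benjamini-Hochberg adjustment over all 15629 genes tested and a threshold of 0.05, 52 of the 105 members were called: 22 were higher and 30 lower in CCl4 libraries. The background over all genes tested was 37.8% called, with 15.3% higher and 22.5% lower. The same background stands beside each count by role group or gene list below. Counts by role group include members at 10 TPM in the mean of 1 group alone. The limit on the mean favours large changes in such members. Among the 7943 genes that also average at least 10 TPM the share was 41.6%, against 49.5% of the members. Restricted to genes at 10 TPM in both group means, 35 of 84 members were called, 18 higher and 17 lower, against 34.5% of 6705 genes. In 47 of 105 members all CCl4 libraries lay on the same side of all naive libraries, above in 21 and below in 26. Such separation was seen in 36.9% of all genes tested and in 40.5% of the 7943 genes averaging at least 10 TPM. Among the 84 members at 10 TPM in both group means, 32 were separated in this way. The median log2 fold change was -0.17 over the members and -0.06 over all genes. Quantile normalization, which moved the median of all genes to 0.11, gave 29 members higher and 26 lower. Summed over the 105 members, the level was 3079.5 to 3664 TPM in CCl4 and 3340.1 to 4219.8 TPM in naive libraries, so the ranges overlapped while single carriers moved several-fold in both directions. Fold changes are given on the log2(TPM + 1) scale, CCl4 minus naive, which understates the change of low genes.

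**Figure D1:**
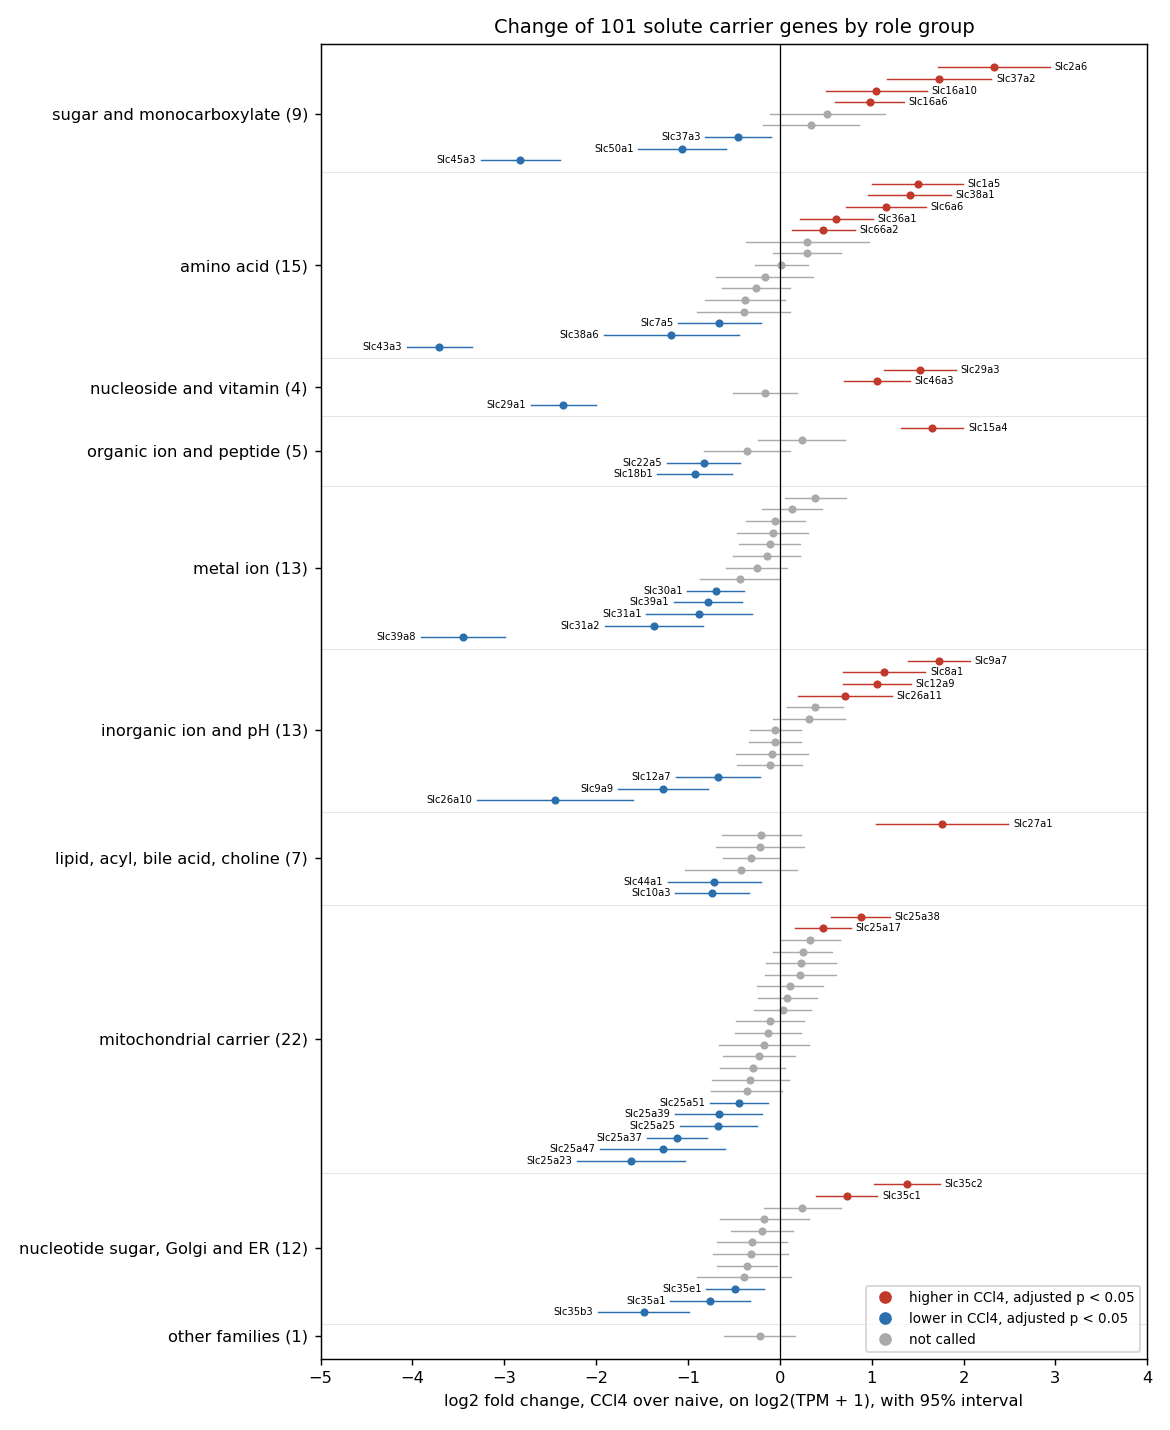
Log2 fold change of each of 101 members (CCl4 over naive, points) with its 95% interval (lines), in rows by role group with the number drawn in parentheses; 4 members are not drawn. Red points are 21 members called higher, blue points 28 called lower and grey points 52 not called; the 13 metal ion carriers hold 5 blue points.

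Of 13 metal ion carriers 5 fell, none rose and 8 were not called. The share called, 38.5%, was near the 37.8% of all genes tested (15.3% higher and 22.5% lower). No role group was tested as a set. Under other scalings and with libraries weighted in the fit Slc30a5 was called higher, and rescaling to protein-coding genes also called Slc11a2 lower. Slc39a8 (ZIP8, chr3:135816882-135888572, GRCm38), which imports zinc and manganese into the cell, had 5.03, 6.46 and 7.77 TPM in CCl4 libraries 1, 2-4 and 3, against 83.7, 96.4, 92.2, 78.2 and 52.8 TPM in naive libraries 1 to 5. Every CCl4 library lay below every naive one, naive library 5 being the lowest of its group. The mean fell 12.6-fold (log2 fold change -3.45, SE 0.21, adjusted p = 1.64e-06 by limma). Slc31a2 (CTR2, a copper carrier of endosomes and lysosomes) had 22.9, 25.3 and 16.99 TPM in CCl4 libraries and 60.1, 69.2, 73.6, 58.8 and 33.7 TPM in naive libraries, again without overlap (log2 fold change -1.37, SE 0.24, adjusted p = 0.00117 by limma). That call was lost when only the leading transcript was used (adjusted p = 0.212). Slc30a1, the zinc exporter of the plasma membrane and a textbook target of the zinc sensor MTF1, had 15.1, 14.01 and 14.8 TPM in CCl4 libraries, against 23.5, 26.9, 27.5, 24.5 and 20.2 TPM in naive libraries, and fell by a smaller amount (log2 fold change -0.70, SE 0.14, adjusted p = 0.0026 by limma). Slc39a1 (ZIP1), a zinc importer and the most abundant of the 5, averaged 71.8 ± 15.98 TPM in CCl4 and 123.3 ± 17.5 TPM in naive libraries (SD, n = 3 and 5; log2 fold change -0.78), and its call was lost with the leading transcript alone (adjusted p = 0.998). Slc31a1 (CTR1), the copper importer of the cell surface, had 14.7, 9.82 and 8.46 TPM in CCl4 libraries and 22.3, 24.02, 24.6, 23.7 and 11.6 TPM in naive libraries, so that the groups overlapped (log2 fold change -0.88), and its call was lost without CCl4 library 2-4 or 3, with an adjusted p of up to 0.099.

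The 8 metal carriers not called were the iron importer Slc11a2 (DMT1), the zinc carriers Slc30a5, Slc30a7 and Slc30a9, the ZIP proteins Slc39a7, Slc39a9 and Slc39a13, and the magnesium carrier Slc41a1. Their log2 fold changes ran between -0.43 and 0.39. Slc11a2 averaged 10.3 ± 0.999 TPM in CCl4 and 14.6 ± 3.75 TPM in naive libraries (SD, n = 3 and 5; adjusted p = 0.112 by limma), and was called lower when rescaled to protein-coding genes and without naive library 5 (adjusted p = 0.0454 and 0.0458). Slc39a7 (ZIP7), which releases zinc from the ER, averaged 70.2 ± 10.7 TPM in CCl4 and 75.7 ± 9.601 TPM in naive libraries (SD, n = 3 and 5), with a 95% interval of the log2 difference of -0.44 to 0.22. Slc30a5, which loads zinc into the secretory pathway, averaged 32.1 ± 5.08 TPM in CCl4 and 24.2 ± 2.81 TPM in naive libraries (SD, n = 3 and 5; adjusted p = 0.0665 by limma). Slc30a5 was called higher when libraries were rescaled to protein-coding genes, by median of ratios or by quantiles (adjusted p = 0.0322, 0.00853 and 0.00567). It was also called higher with libraries weighted in the fit (adjusted p = 0.0496 by limma). Slc39a8 and Slc39a1 bring zinc into the cytosol and Slc30a1 takes it out, and all 3 fell. Of the genes that respond to zinc, the metallothionein Mt2 fell (14.04 ± 7.06 TPM in CCl4 and 54.9 ± 26.6 TPM in naive libraries; SD, n = 3 and 5; log2 fold change -1.92, SE 0.41, adjusted p = 0.00382 by limma). The metallothionein Mt1 averaged 116.0 ± 43.6 TPM in CCl4 and 158.0 ± 27.8 TPM in naive libraries and the zinc sensor Mtf1 8.12 ± 0.541 TPM in CCl4 and 9.78 ± 1.37 TPM in naive libraries, neither passing the test (SD, n = 3 and 5; adjusted p = 0.135 and 0.27 by limma), and Mt3 was too low to be tested.

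Promoter windows from RefSeq (GRCm38.p6, 250 bases before to 50 after a transcript start) were available for 82 of the 105 members, as 113 windows. The metal response element core, to which MTF1 binds, was searched as TGCACNC and TGCGCNC on both strands. It was present in 33.6% of the members' windows and in 25.7% of all 32851 windows. All windows include those of genes too low to be tested here, so they are not matched to the members in expression. The windows of 3 of the 5 metal carriers that fell are shown because they hold that core (in capitals, in its own letters or as the reverse complement), with no other searched motif overlapping it. A match is a stretch of letters and not a measured binding site.
Slc30a1, chr1:191906531-191906830, plus strand: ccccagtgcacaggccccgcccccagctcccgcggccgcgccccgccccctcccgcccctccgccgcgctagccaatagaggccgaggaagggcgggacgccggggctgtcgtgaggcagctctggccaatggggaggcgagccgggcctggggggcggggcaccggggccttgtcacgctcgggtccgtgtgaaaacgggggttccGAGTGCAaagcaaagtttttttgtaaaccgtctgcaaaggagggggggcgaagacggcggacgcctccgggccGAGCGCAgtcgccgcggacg
Slc31a2, chr4:62286179-62286478, plus strand: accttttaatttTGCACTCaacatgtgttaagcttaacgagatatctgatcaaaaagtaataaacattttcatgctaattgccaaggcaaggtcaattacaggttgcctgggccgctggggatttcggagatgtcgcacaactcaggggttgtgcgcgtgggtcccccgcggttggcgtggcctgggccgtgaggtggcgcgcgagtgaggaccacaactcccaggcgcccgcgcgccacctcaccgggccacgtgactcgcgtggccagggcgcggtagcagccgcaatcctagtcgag
Slc39a8, chr3:135825407-135825706, plus strand: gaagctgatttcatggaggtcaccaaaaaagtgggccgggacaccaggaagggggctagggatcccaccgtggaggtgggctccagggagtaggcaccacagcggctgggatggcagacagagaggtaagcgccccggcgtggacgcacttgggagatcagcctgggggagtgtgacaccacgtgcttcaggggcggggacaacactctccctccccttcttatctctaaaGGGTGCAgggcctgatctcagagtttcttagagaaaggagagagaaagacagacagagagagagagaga

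The Slc30a1 window holds 2 matches, both written as the reverse complement, and each of the other windows holds 1. The other Slc39a8 window of the table, chr3:135825029-135825328, has no match, nor do the windows of Slc31a1 and Slc39a1. Among the metal carriers that were not called, Slc30a5, Slc39a13 and Slc41a1 have 1 match each, so the core was not restricted to the carriers that fell. Of the other motifs searched on both strands, the antioxidant response core, TGACNNNGC, was present in 19.5% of the members' windows and 12.4% of all windows, and TGATGNAA, the general form of the C/EBP-ATF composite site, in 5.31% and 3.97%. A further motif, CACGTG, was chosen after the data were seen. It was present in 14.2% of the members' windows and 7.15% of all windows, which are not matched in expression. The share was 15.8% for members that rose and 15.4% for members that fell.

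Sugar, sugar phosphate and monocarboxylate carriers split evenly: 4 of 10 rose, 4 fell and 2 were not called. Among them Slc2a6 and Slc16a6, which rose, and Slc45a3, which fell, reached 10 TPM in the mean of 1 group alone. Slc2a6 (GLUT6), a glucose transporter family member of lysosomal membranes in macrophages, showed the largest rise of all members. It had 19.6, 31.4 and 27.2 TPM in CCl4 libraries 1, 2-4 and 3, against 3.07, 4.03, 3.55, 3.67 and 8.52 TPM in naive libraries 1 to 5. No libraries overlapped, and naive library 5 stood above the other 4 naive libraries. The mean was 5.71-fold higher (log2 fold change 2.33, SE 0.28, adjusted p = 7.87e-05 by limma). Every naive library was below 10 TPM, so Slc2a6 passed the limit on the mean through its CCl4 libraries. Such a choice favours large rises, and its rank is a description. Among members at 10 TPM in both group means the largest log2 fold change was 1.74. Slc37a2, a sugar phosphate exchanger of the ER known as a macrophage gene, had 63.2, 28.5 and 39.6 TPM in CCl4 libraries and 14.1, 15.1, 8.47, 10.2 and 12.2 TPM in naive libraries (log2 fold change 1.74, SE 0.26, adjusted p = 3.61e-04 by limma). Library 1 was the highest of the CCl4 group and all 3 exceeded every naive library. Its relative Slc37a3, which works in the release of bisphosphonates from lysosomes, had a log2 fold change of -0.46, but that call was lost without CCl4 library 1 or 3 or naive library 1, 2, 3 or 5 (adjusted p of up to 0.156).

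Slc16a10 (TAT1), a carrier of aromatic amino acids in the monocarboxylate carrier family, rose, with 57.6, 33.1 and 38.6 TPM in CCl4 and 20.3, 22.1, 13.3, 17.1 and 29.3 TPM in naive libraries (log2 fold change 1.05, SE 0.25, adjusted p = 0.00692 by limma). Its call was lost when only the leading transcript was used (adjusted p = 0.391). Slc16a6 (MCT7), described as a ketone body carrier in zebrafish, rose too, averaging 15.6 ± 1.23 TPM in CCl4 and 7.51 ± 1.403 TPM in naive libraries (SD, n = 3 and 5; log2 fold change 0.98). Slc45a3, of a family of proton-coupled sugar carriers, had 1.91, 1.77 and 2.22 TPM in CCl4 libraries, against 24.8, 23.8, 13.9, 19.9 and 19.5 TPM in naive libraries, a 10.4-fold lower mean (log2 fold change -2.83, SE 0.20, adjusted p = 2.48e-06 by limma). Slc50a1 (SWEET1), a glucose carrier of the Golgi, fell, averaging 20.1 ± 5.60 TPM in CCl4 and 42.9 ± 8.48 TPM in naive libraries (SD, n = 3 and 5; log2 fold change -1.07). Slc45a4 and the myo-inositol importer Slc5a3 were not called, with log2 fold changes of 0.52 and 0.34.

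**Figure D2:**
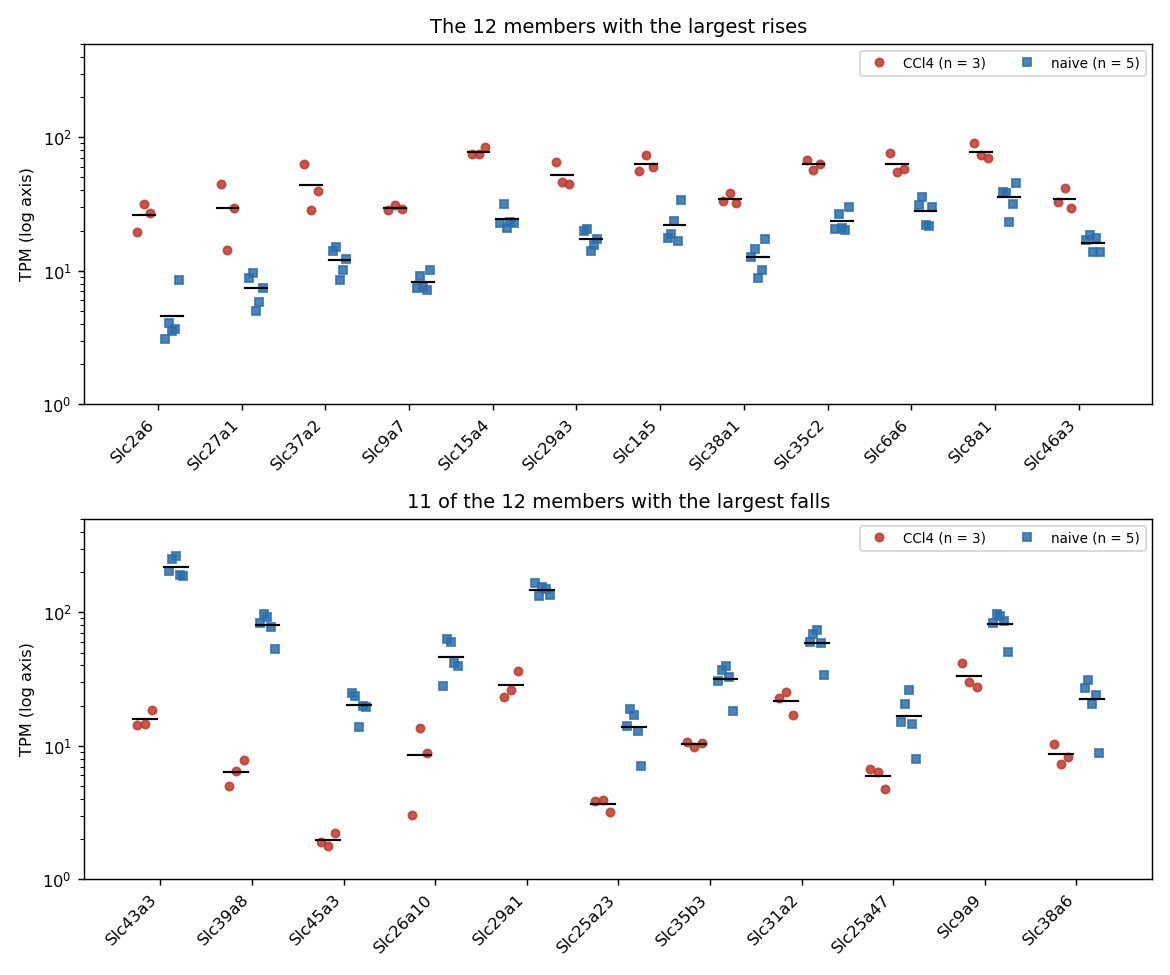
TPM (log axis) of the 12 members with the largest rises (top) and 11 of the 12 with the largest falls (bottom) in each CCl4 library (red circles, n = 3) and each naive library (blue squares, n = 5), with group means as black lines. Slc2a6 rose 5.71-fold and Slc43a3 fell 13.9-fold in the mean; of the 23 members plotted, Slc38a6 is the one whose groups overlap.

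Of 15 amino acid carriers 5 rose, 3 fell and 7 were not called. Slc43a3, filed here by its family number and known as a purine nucleobase transporter, fell the most of all members. It had 14.2, 14.6 and 18.4 TPM in CCl4 libraries 1, 2-4 and 3, against 203.4, 249.1, 266.2, 191.0 and 186.0 TPM in naive libraries 1 to 5, a 13.9-fold lower mean (log2 fold change -3.71, SE 0.16, adjusted p = 1.50e-06 by limma). Its naive mean was the highest of the 105 members. Slc43a2 (LAT4), a carrier of large neutral amino acids in the same family, averaged 96.3 ± 14.8 TPM in CCl4 and 127.5 ± 27.5 TPM in naive libraries (SD, n = 3 and 5; adjusted p = 0.153 by limma).

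Among the carriers that rose are importers of glutamine and of taurine. Slc1a5 (ASCT2), the sodium-dependent glutamine exchanger, had 55.5, 73.6 and 59.8 TPM in CCl4 libraries, against 17.7, 18.8, 23.8, 16.6 and 34.1 TPM in naive libraries (log2 fold change 1.50, SE 0.22, adjusted p = 3.77e-04 by limma). Slc38a1 (SNAT1), another sodium-coupled glutamine importer, had 33.2, 38.5 and 32.3 TPM in CCl4 and 12.7, 14.5, 8.799, 10.2 and 17.4 TPM in naive libraries (log2 fold change 1.41, SE 0.21, adjusted p = 3.23e-04 by limma). In both genes the CCl4 libraries lay above all naive libraries, and naive library 5 was the highest of its group. Slc6a6, the taurine transporter, averaged 62.98 ± 11.1 TPM in CCl4 and 28.03 ± 6.25 TPM in naive libraries (SD, n = 3 and 5; log2 fold change 1.15), a call lost with the leading transcript alone (adjusted p = 0.177). The lysosomal amino acid carrier Slc36a1 (PAT1) and the PQ-loop family member Slc66a2 rose by 0.61 and 0.47 on the log2 scale. The call of Slc36a1 was lost without CCl4 library 1 or 3 (adjusted p of up to 0.0784), and that of Slc66a2 without CCl4 library 2-4 or naive library 1, 2 or 4 (adjusted p of up to 0.141).

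CD98, the heavy chain Slc3a2 that carries the light chains of the Slc7 family to the cell surface, was among the most abundant members and had 167.7, 132.0 and 131.6 TPM in CCl4 libraries, against 130.6, 149.3, 149.2, 134.9 and 143.1 TPM in naive libraries. Its groups overlapped and its log2 difference had a 95% interval of -0.27 to 0.30. Of its light chains Slc7a5 (LAT1) fell, averaging 15.9 ± 4.89 TPM in CCl4 and 25.2 ± 3.87 TPM in naive libraries (SD, n = 3 and 5; log2 fold change -0.66). That call was lost without CCl4 library 1 or 3 or naive library 2 or 3 (adjusted p of up to 0.111). The light chains Slc7a7 (y+LAT1) and Slc7a8 (LAT2) were not called, and Slc7a8 ranged over 33.9 to 88.1 TPM in CCl4 libraries, against 27.1 to 52.7 TPM in naive libraries. Slc38a6 fell, at 10.4, 7.27 and 8.24 TPM in CCl4 and 26.9, 31.1, 20.4, 24.1 and 8.85 TPM in naive libraries, where naive library 5 lay inside the CCl4 range. The call of Slc38a6 was lost without CCl4 library 2-4 or 3 (adjusted p of up to 0.0627). Slc38a2 (SNAT2), Slc38a7 and Slc38a10 were not called. Of 7 regulators of the amino acid response, 4 fell (Chac1, Atf5, Asns and Trib3), and Atf4 averaged 95.5 ± 2.46 TPM in CCl4 and 108.3 ± 14.1 TPM in naive libraries (SD, n = 3 and 5; adjusted p = 0.356 by limma). Chac1, which degrades glutathione, averaged 0.279 ± 0.185 TPM in CCl4 and 3.21 ± 1.01 TPM in naive libraries (SD, n = 3 and 5; log2 fold change -1.70), and Atf5 averaged 8.91 ± 3.04 TPM in CCl4 and 19.8 ± 6.19 TPM in naive libraries (SD, n = 3 and 5; log2 fold change -1.07; adjusted p = 0.053 without CCl4 library 3 and 0.0683 with the leading transcript alone). Asns and Trib3 averaged under 2 TPM in both groups, and their calls were lost without CCl4 library 3 and, for Trib3, also without 2-4 (adjusted p of up to 0.0994 and 0.0646); that of Asns was also lost with quantile normalization (adjusted p = 0.0599).

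The 2 nucleoside carriers moved apart. Slc29a1 (ENT1), which moves adenosine and other nucleosides across the plasma membrane, had 23.1, 26.02 and 36.4 TPM in CCl4 libraries 1, 2-4 and 3, against 167.2, 132.9, 153.6, 150.3 and 135.7 TPM in naive libraries 1 to 5, a 5.19-fold lower mean (log2 fold change -2.36, SE 0.16, adjusted p = 2.39e-06 by limma). Slc29a3 (ENT3), which exports nucleosides from the lysosome, had 65.3, 46.5 and 44.9 TPM in CCl4 libraries, against 19.8, 20.4, 14, 15.5 and 17.2 TPM in naive libraries, a 3.005-fold higher mean (log2 fold change 1.53, SE 0.18, adjusted p = 6.65e-05 by limma). Neither gene's groups overlapped, and Slc29a3 exceeded Slc29a1 in all 3 CCl4 libraries, while Slc29a1 exceeded Slc29a3 in all 5 naive libraries. Slc46a3, a lysosomal carrier filed with the vitamin carriers, rose, averaging 34.7 ± 6.13 TPM in CCl4 and 16.1 ± 2.19 TPM in naive libraries (SD, n = 3 and 5; log2 fold change 1.06, SE 0.16, adjusted p = 4.67e-04 by limma). Slc23a2, the ascorbate importer, was not called (log2 fold change -0.16).

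Slc15a4, a lysosomal exporter of histidine and small peptides that endosomal Toll-like receptor signalling needs, led the organic ion and peptide carriers. It had 74.4, 74.9 and 85.03 TPM in CCl4 libraries, against 22.7, 31.8, 20.9, 23.3 and 22.7 TPM in naive libraries, without overlap (log2 fold change 1.66, SE 0.15, adjusted p = 1.46e-05 by limma). The close relative Slc15a3 had 140.7, 109.3 and 112.1 TPM in CCl4 and 100.8, 113.0, 73.7, 85.6 and 150.6 TPM in naive libraries and was not called, with a 95% interval of the log2 difference of -0.24 to 0.71. Slc18b1, a vesicular polyamine carrier, averaged 6.57 ± 1.70 TPM in CCl4 and 13.3 ± 1.91 TPM in naive libraries (SD, n = 3 and 5; log2 fold change -0.93), and Slc22a5 (OCTN2), the carnitine importer, averaged 9.005 ± 2.38 TPM in CCl4 and 16.5 ± 1.84 TPM in naive libraries (SD, n = 3 and 5; log2 fold change -0.83). Both fell. Slc17a5 (sialin), which exports sialic acid from lysosomes, was not called. Of 9 organic anion transporting polypeptides, which carry the Slco symbols, 5 were tested and 4 fell. The prostaglandin transporter Slco2a1 averaged 7.298 ± 1.53 TPM in CCl4 and 91.7 ± 27.9 TPM in naive libraries and Slco3a1 9.205 ± 1.82 TPM in CCl4 and 31.1 ± 10.2 TPM in naive libraries (SD, n = 3 and 5; log2 fold change -3.43 and -1.61).

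Of 20 genes of lysosomal amino acid sensing 4 rose, 1 fell and 15 were not called. Tfeb, a transcription factor of lysosomal genes, averaged 42.1 ± 1.47 TPM in CCl4 and 21.8 ± 2.98 TPM in naive libraries (SD, n = 3 and 5; log2 fold change 0.93, SE 0.14, adjusted p = 3.90e-04 by limma); that call was lost, and the sign turned, with the leading transcript alone (log2 fold change -0.62, adjusted p = 0.538). Its relative Tfe3 averaged 40.5 ± 7.38 TPM in CCl4 and 41.9 ± 5.31 TPM in naive libraries (SD, n = 3 and 5; adjusted p = 0.81 by limma). Of the Rag GTPases, which recruit mTORC1 to the lysosome, Rraga and Rragb rose (log2 fold change 0.80 and 1.28), and the others listed were not called. Rragb was low, averaging 2.96 ± 0.383 TPM in CCl4 and 0.691 ± 0.551 TPM in naive libraries (SD, n = 3 and 5). Lamtor4, of the complex that anchors the Rag GTPases, rose by 0.67 on the log2 scale. Castor2, of the arginine sensor family, fell (-0.57), a call lost without CCl4 library 2-4 (adjusted p = 0.0549) and with quantile normalization (adjusted p = 0.0544).

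Among 15 inorganic ion and pH carriers 4 rose, 4 fell and 7 were not called. The sodium/proton exchangers of the Slc9 family divided. Slc9a7, of the trans-Golgi network, had 28.7, 30.9 and 29.02 TPM in CCl4 libraries 1, 2-4 and 3, against 7.41, 9.08, 7.499, 7.13 and 10.1 TPM in naive libraries 1 to 5 (log2 fold change 1.73, SE 0.15, adjusted p = 1.03e-05 by limma). Slc9a9, of endosomes, had 41.5, 30.3 and 27.7 TPM in CCl4 and 82.8, 97.9, 94.2, 86.6 and 50.9 TPM in naive libraries (log2 fold change -1.27, SE 0.22, adjusted p = 0.00105 by limma). Neither gene had overlapping groups, whereas Slc9a8 differed by less than the spread between libraries (15.1 ± 0.972 TPM in CCl4 and 15.6 ± 0.557 TPM in naive libraries; SD, n = 3 and 5).

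Slc8a1 (NCX1), the sodium/calcium exchanger of the plasma membrane, rose, with 90.4, 73.4 and 70.4 TPM in CCl4 libraries, against 38.8, 38.5, 23.3, 31.8 and 45.3 TPM in naive libraries (log2 fold change 1.14, SE 0.20, adjusted p = 0.00122 by limma). Its mitochondrial counterpart Slc8b1 averaged 89.2 ± 6.58 TPM in CCl4 and 72.5 ± 15.9 TPM in naive libraries (SD, n = 3 and 5; adjusted p = 0.182 by limma). Slc12a9 rose, averaging 35.4 ± 3.98 TPM in CCl4 and 16.6 ± 3.03 TPM in naive libraries (SD, n = 3 and 5; log2 fold change 1.06). Slc26a10, of the anion exchanger family, had the largest SE of the members that fell, at 3.06, 13.7 and 8.78 TPM in CCl4 libraries, against 28.3, 62.7, 59.9, 41.4 and 39.8 TPM in naive libraries (log2 fold change -2.45, SE 0.38, adjusted p = 5.38e-04 by limma), without overlap. Slc26a11, a sulfate and chloride carrier, rose by 0.71 on the log2 scale, a call lost without CCl4 library 1 or 3 or naive library 1, 3 or 4 (adjusted p of up to 0.159). Slc12a7 (KCC4), a potassium-chloride cotransporter, fell (log2 fold change -0.67), and its call was lost without CCl4 library 2-4 or 3 or naive library 1 or 2 (adjusted p of up to 0.111). Slc20a1 (PiT-1), the phosphate importer, missed the threshold, averaging 31.9 ± 5.09 TPM in CCl4 and 24.1 ± 1.67 TPM in naive libraries (SD, n = 3 and 5; adjusted p = 0.0503 by limma), and was called higher in 8 of 21 alternative settings (adjusted p = 0.00615 to 0.0499). Slc12a4, Slc26a2 and Slc4a2 were not called either.

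The sodium gradient that drives many of these carriers is kept by the sodium pump, of which 5 of 7 listed subunits were tested. Of these 5, 2 rose, 1 fell and 2 were not called. The regulatory subunit Fxyd5 rose, averaging 335.8 ± 103.8 TPM in CCl4 and 96.3 ± 21.5 TPM in naive libraries (SD, n = 3 and 5; log2 fold change 1.76), a call lost with the leading transcript alone (adjusted p = 0.172). Atp1b3 fell, averaging 63.9 ± 8.54 TPM in CCl4 and 148.7 ± 19.9 TPM in naive libraries (SD, n = 3 and 5; log2 fold change -1.20). Atp1b1 was not called. Of 8 accessory proteins of carriers, embigin (Emb), which escorts monocarboxylate carriers to the surface, rose, averaging 43.4 ± 2.73 TPM in CCl4 and 4.12 ± 1.93 TPM in naive libraries, as did Arl6ip5, known to modulate glutamate transporters, averaging 104.4 ± 8.86 TPM in CCl4 and 62.1 ± 5.02 TPM in naive libraries (SD, n = 3 and 5; log2 fold change 3.18 and 0.74). Slc9a3r2 (NHERF2), a scaffold for sodium/proton exchangers, fell, averaging 8.44 ± 2.16 TPM in CCl4 and 116.1 ± 19.7 TPM in naive libraries (SD, n = 3 and 5; log2 fold change -3.64). Basigin (Bsg), the other escort of monocarboxylate carriers, averaged 97.4 ± 38.04 TPM in CCl4 and 144.2 ± 24.1 TPM in naive libraries (SD, n = 3 and 5; adjusted p = 0.0636 by limma).

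**Figure D3:**
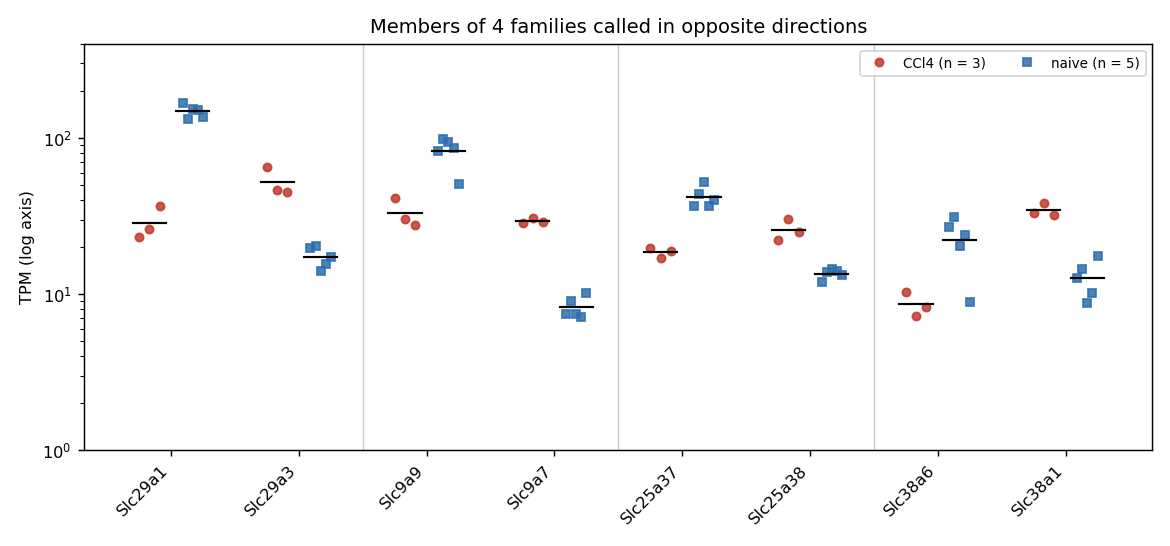
TPM (log axis) of members of 4 families (Slc29, Slc9, Slc25 and Slc38, divided by grey lines) in each CCl4 library (red circles, n = 3) and each naive library (blue squares, n = 5), with group means as black lines. In each family the plotted members were called in opposite directions. Slc9a7 averaged under 10 TPM in naive libraries and Slc38a6 in CCl4 libraries. The groups of Slc38a6 overlap, and its call was lost without CCl4 library 2-4 or 3.

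Of 39 families among the members, 11 had 2 or more called members, and 9 of these had calls in both directions, among them Slc9, Slc12, Slc25, Slc26, Slc29, Slc35, Slc37 and Slc38. Slc12, Slc26, Slc37 and Slc38 had 1 call each way. In each of these 1 call was lost without a single library (Slc12a7, Slc26a11, Slc37a3 and Slc38a6). With 22 members higher and 30 lower in all, how many mixed families to expect was not tested. The plot of members of 4 families was chosen after these values were seen.

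The lipid, acyl group, bile acid and choline carriers held 1 rise and 2 falls among 7. Slc27a1 (FATP1), which takes up and activates long-chain fatty acids, had 45.05, 14.3 and 29.8 TPM in CCl4 libraries, against 8.85, 9.704, 4.98, 5.87 and 7.48 TPM in naive libraries (log2 fold change 1.77, SE 0.33, adjusted p = 0.00153 by limma). The 3 CCl4 libraries spread over a wide range and all lay above every naive library. All naive libraries were below 10 TPM, so Slc27a1 passed the limit on the mean through its CCl4 libraries. Slc10a3 fell, averaging 7.13 ± 1.46 TPM in CCl4 and 12.5 ± 2.01 TPM in naive libraries (SD, n = 3 and 5; log2 fold change -0.74), and its call was lost with the leading transcript alone (adjusted p = 0.953). Slc44a1, the choline carrier, fell by 0.71 on the log2 scale, but the call was lost without any one of the 3 CCl4 libraries or of naive libraries 1, 2 and 3 (adjusted p of up to 0.0786). Slc10a1 (NTCP), the bile acid importer of hepatocytes, was present at 9.91 ± 4.37 TPM in CCl4 and 13.3 ± 3.48 TPM in naive libraries (SD, n = 3 and 5; adjusted p = 0.262 by limma), beside the hepatocyte marker sums given above. Slc10a7, Slc33a1 and Slc44a2 were not called.

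Mitochondrial carriers were the largest role group, with 3 rises, 6 falls and 14 of 23 not called; quantile normalization turned the split to 7 higher and 4 lower, and rescaling to protein-coding genes gave 2 higher and 8 lower. The 2 most abundant of all members were here. Slc25a5 (ANT2), an ADP/ATP exchanger, had 244.6, 157.8 and 165.8 TPM in CCl4 libraries and 197.4, 236.3, 199.4, 187.5 and 181.9 TPM in naive libraries, and Slc25a3, the phosphate importer, averaged 200.9 ± 27.1 TPM in CCl4 and 169.0 ± 19.6 TPM in naive libraries (SD, n = 3 and 5). Their log2 differences had 95% intervals of -0.47 to 0.27 and -0.07 to 0.57. Slc25a4 (ANT1), closely related in sequence to Slc25a5, averaged 76.7 ± 9.95 TPM in CCl4 and 84.4 ± 14.5 TPM in naive libraries (SD, n = 3 and 5), and how reads were split between the pair cannot be seen in TPM.

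Slc25a37 (mitoferrin-1), the mitochondrial iron importer of erythroid cells, fell, with 19.8, 16.98 and 19.003 TPM in CCl4 libraries, against 36.7, 43.6, 52.3, 36.7 and 40.1 TPM in naive libraries (log2 fold change -1.12, SE 0.15, adjusted p = 1.80e-04 by limma). Naive library 5, where the erythroid marker sum was 156.2 TPM, had a Slc25a37 level within the range of the other naive libraries. The part of erythroid RNA in the fall of Slc25a37 was not tested. Slc25a38, which brings in glycine for haem synthesis, rose, with 22.2, 30.5 and 24.9 TPM in CCl4 and 12.01, 13.8, 14.5, 14.1 and 13.2 TPM in naive libraries (log2 fold change 0.88, SE 0.14, adjusted p = 7.44e-04 by limma). Slc25a28 (mitoferrin-2), the form of other cells, averaged 31.4 ± 5.59 TPM in CCl4 and 40.6 ± 7.36 TPM in naive libraries (SD, n = 3 and 5; adjusted p = 0.135 by limma). The largest fall among mitochondrial carriers was that of Slc25a23, a calcium-regulated ATP-Mg/phosphate carrier, which had 3.85, 3.94 and 3.196 TPM in CCl4 libraries, against 14.1, 18.8, 16.96, 12.8 and 7.01 TPM in naive libraries (log2 fold change -1.62, SE 0.27, adjusted p = 7.43e-04 by limma). Its relative Slc25a25 fell by less (log2 fold change -0.67), and that call was lost without CCl4 library 2-4 or 3 (adjusted p of up to 0.0727). Slc25a47, known as a liver carrier, averaged 5.97 ± 1.06 TPM in CCl4 and 16.9 ± 6.86 TPM in naive libraries (SD, n = 3 and 5; log2 fold change -1.28), a call lost with the leading transcript alone (adjusted p = 0.79).

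Further calls among mitochondrial carriers were lost without a single library. Slc25a39, the glutathione importer, fell by 0.67 on the log2 scale, and its call was lost without CCl4 library 2-4 or 3 or naive library 1, 2, 3 or 4 (adjusted p of up to 0.139). Slc25a51, the NAD importer, fell by 0.45, lost without CCl4 library 2-4 or 3 or naive library 2 or 3 (adjusted p of up to 0.116). Slc25a17, of peroxisomes, rose by 0.47, lost without CCl4 library 1 or 2-4 or naive library 1 (adjusted p of up to 0.0825). Not called were also Slc25a1, Slc25a11, Slc25a12, Slc25a20, Slc25a24, Slc25a30, Slc25a36, Slc25a44, Slc25a45 and Slc25a46, and the 14 uncalled carriers had log2 fold changes between -0.36 and 0.33. Of 10 genes of the pyruvate carrier and the calcium uniporter, 1 rose and 2 fell. Mcub, the inhibitory uniporter subunit, rose, averaging 29.9 ± 7.43 TPM in CCl4 and 2.38 ± 2.37 TPM in naive libraries, while Mcu, the pore subunit, fell, averaging 4.73 ± 0.4796 TPM in CCl4 and 18.7 ± 3.905 TPM in naive libraries (SD, n = 3 and 5; log2 fold change 3.38 and -1.76). The pyruvate carrier subunits Mpc1 and Mpc2 were not called.

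In the Slc35 family of the Golgi and ER 2 of 12 rose, 3 fell and 7 were not called. Slc35c2, linked to the fucosylation of Notch, had 67.3, 56.97 and 63.4 TPM in CCl4 libraries 1, 2-4 and 3, against 20.6, 26.7, 20.8, 20.1 and 30.02 TPM in naive libraries 1 to 5 (log2 fold change 1.38, SE 0.16, adjusted p = 7.63e-05 by limma). Slc35c1, the GDP-fucose carrier of the Golgi, rose as well, averaging 20.4 ± 2.201 TPM in CCl4 and 11.9 ± 1.52 TPM in naive libraries (SD, n = 3 and 5; log2 fold change 0.73), although not with the leading transcript alone (adjusted p = 0.397). Slc35b3, which brings the sulfate donor PAPS into the Golgi, had 10.7, 9.87 and 10.5 TPM in CCl4 and 30.6, 37.1, 39.8, 32.98 and 18.4 TPM in naive libraries (log2 fold change -1.48, SE 0.22, adjusted p = 4.14e-04 by limma). The CMP-sialic acid carrier Slc35a1 averaged 7.41 ± 0.598 TPM in CCl4 and 13.5 ± 2.94 TPM in naive libraries (SD, n = 3 and 5; log2 fold change -0.76) and fell. Slc35e1 fell by 0.49 on the log2 scale, a call lost without CCl4 library 1 or 3 (adjusted p of up to 0.0626). The UDP-galactose carrier Slc35a2, the UDP-N-acetylglucosamine carrier Slc35a3, and Slc35a4, Slc35b1, Slc35b4, Slc35f5 and Slc35f6 were not called. Slc49a4, the only member of other families, averaged 13.1 ± 2.45 TPM in CCl4 and 15.4 ± 2.63 TPM in naive libraries (SD, n = 3 and 5; adjusted p = 0.358 by limma).

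Transcript use, which the choice of members did not involve, was compared as the share of a member's TPM held by its leading transcript. It was tested in the 76 members with at least 2 transcripts of 2 TPM or more. By an exact permutation test (two-sided, 56 arrangements, smallest possible p 0.0357), 12 members (15.8%) reached that p, each with groups that did not overlap, against 11.8% non-overlapping among 4895 genes tested that have 2 such transcripts. None passed adjustment (smallest adjusted p = 0.226), for which 55 of the 76 would have had to reach the smallest p. Of the 63 members that averaged at least 10 TPM in both groups, a limit set after the data were seen, 6 (9.52%) had groups that did not overlap, against 11.5% of 3758 genes. Those 6 were Slc23a2, Slc25a12, Slc25a36, Slc30a7, Slc35a2 and Slc46a3. For Slc46a3, NM_027872.3 held 77.7, 81.3 and 79.4% in CCl4 libraries 1, 2-4 and 3, against 68.5, 59.02, 52.1, 73.5 and 45.2% in naive libraries 1 to 5. For Slc23a2, whose total was not called, XM_006499906.3 held 23.8, 34.2 and 23.99% in CCl4 libraries and 66.2, 85.4, 75.5, 60.3 and 50% in naive libraries. That transcript averaged 3.33 ± 1.16 TPM in CCl4 and 9.18 ± 2.73 TPM in naive libraries, and XM_006499907.3 averaged 7.298 ± 1.01 TPM in CCl4 and 2.89 ± 1.49 TPM in naive libraries (SD, n = 3 and 5). The other 6 were Slc9a7, Slc10a3, Slc25a25, Slc25a47, Slc26a10 and Slc39a8, each below 10 TPM in the mean of 1 group. In Slc39a8 all 5 transcripts that met the 2 TPM minimum averaged under 2 TPM in CCl4 libraries, so shares of its low CCl4 total are not given. Shares of this kind are kallisto's estimates, and in 81 members at least 1 transcript was matched to RefSeq only without its version.

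**Figure D4:**
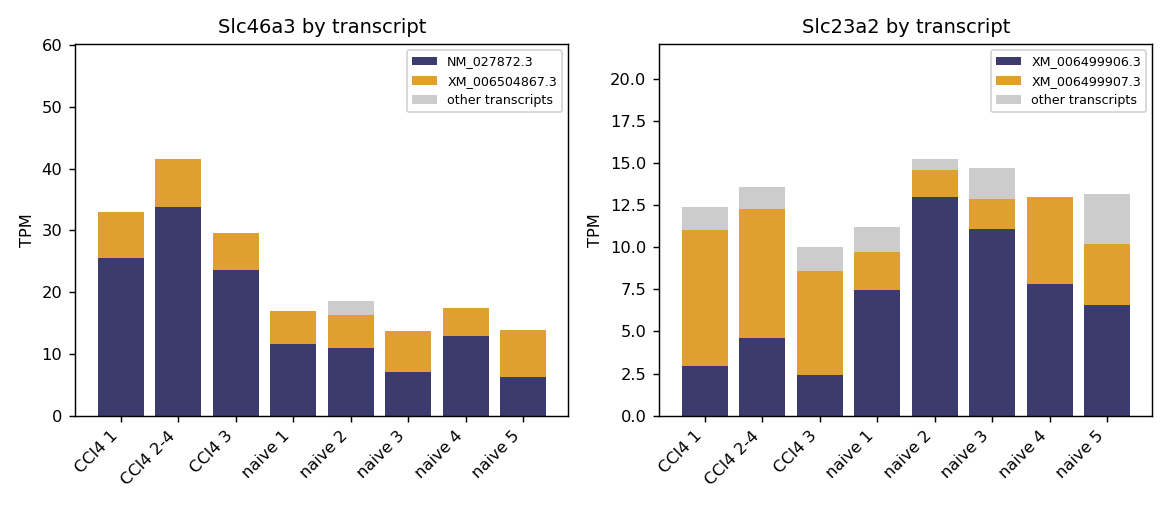
TPM of Slc46a3 (left) and Slc23a2 (right) in each CCl4 library and each naive library, as stacked bars whose colours are transcripts; grey is the sum of transcripts averaging under 2 TPM. The dark part of the Slc23a2 bars, XM_006499906.3, holds 27.3% of the gene in CCl4 libraries, against 67.5% in naive libraries (means).

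Naive library 5 was the lowest naive library for 21 of the 30 members that fell (70.0%), close to its share among all 3513 genes that fell (68.0%). It was the highest naive library for 9 of the 22 members that rose (40.9%), against 48.3% of the 2393 genes that rose. Without it, 54 members were called, 23 higher and 31 lower. Without CCl4 library 2-4, 42 were called, 19 higher and 23 lower.

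The threshold on the mean lay close to several genes. Just inside were Slc25a23, Slc5a3 and Slc10a3, with means of 10.1, 10.1 and 10.5 TPM over the 8 libraries, and just outside Slc37a1, Slc27a4 and Slc35e2, with 9.98, 9.93 and 9.60 TPM. Of the 248 carrier genes below 10 TPM, 114 could be tested, and 17 were higher and 35 lower in CCl4 libraries.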

How the data were processed

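Each deposited file gives TPM for every RefSeq transcript, as its header states. According to the submitters' processing notes, kallisto 0.42.4 and the build GRCm38 were used, and the labels' protocols give a directional kit with 1.5 ug of total RNA. How cells were isolated and which index was used is not given in the sources used here. Of 107384 transcripts, 86722 matched a gene of the GRCm38.p6 RefSeq table by accession without version. The 20662 unmatched ones held 6.06% to 7.58% of a library's TPM and were left out, so some sums are incomplete. The 7SL RNA genes held 27.5% to 41.3% and protein-coding genes 45.5% to 56.0%. No depth or counting interval can be had from TPM, so precision rests on the spread between libraries.

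TPM were summed per gene. A gene was tested where 3 or more libraries had 1 TPM or more, as in all 105 members. The test was limma (version 3.58.1, R version 4.3.3) on log2(TPM + 1), with group as its only term, an eBayes trend and Benjamini-Hochberg adjustment over all genes. The script was tested on simulated data. Role groups follow the family number. Named were the 12 largest rises and falls, the 6 most abundant, the best in each role group and those at the threshold; other called members and the uncalled ones given with values were chosen after their values were seen. In the pathway lists, other genes than the rule names were likewise chosen after. Members and lists were chosen with earlier results of these data known. Alternatives changed the pseudocount, filter, scaling, variance model and libraries, added a replicate block or kept the leading transcript alone. Protein features are not analysed here. Some members and pathway genes enter the counts but are not reported here by name or value.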

Additional observations from a re-analysis of the deposited data

Results flagged for a closer look

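In 4 members 1 naive library stood apart from the other 4, its gap to the nearest exceeding the 95% critical value of Dixon's test for 5 values. Chance alone flags about 1 in 20 groups, and 105 members were tested. Slc2a6 was 8.52 TPM in naive library 5, above the other naive libraries and below all CCl4 libraries. Slc31a1 was 11.6 TPM in naive library 5, below the others and inside the range of the CCl4 libraries. Slc15a4 was 31.8 TPM in naive library 2, the highest of its group and below all CCl4 libraries. Slc25a20, the carnitine/acylcarnitine carrier of mitochondria, was 18.1 TPM in naive library 3, the highest of its group. Naive library 5 also had the lowest erythroid marker sum of the naive group, 156.2 TPM. The part of that in these values was not tested.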

How the results depend on the processing

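Over the 21 alternative settings the number of members called ran between 39 and 58 (52 as reported), and 29 of the 52 called members were called in every setting. Quantile normalization gave 4011 genes higher over all genes, against 2393 as reported, and lies behind the split of 29 members higher and 26 lower; rescaling to protein-coding genes gave 21 higher and 37 lower. The cause was not tested. Leaving out 1 library at a time gave 39 to 54 members called and 4578 to 6738 genes called; 37 of the 52 members were called each time. With the leading transcript alone 14 called members lost their call, among them Slc12a7, Slc25a51, Slc36a1, Slc37a3, Slc44a1 and Slc66a2. For the 52 called members and 20 others, 1378 of 1512 values kept their direction and side of the threshold, 95 lost the call, 26 gained it and 13 changed sign. The changes of sign were all in uncalled genes: Slc25a5 (log2 fold change 0.022 with a replicate block, 0.013 without CCl4 replicate 2-4), Slc3a2 (-0.042 rescaled to protein-coding genes, -0.011 with the leading transcript alone, -0.099 without CCl4 replicate 1, -0.012 without naive replicate 1), Slc11a2 (0.107 with the leading transcript alone), Slc23a2 (0.039 with quantile normalization), Slc7a8 (-0.071 without CCl4 replicate 1) and Slc9a8 (0.035 by median of ratios, 0.116 with quantile normalization, 0.297 with the leading transcript alone, 0.00060 without CCl4 replicate 3). Without 1 library each, Slc25a5 ran between -0.302 and 0.013, Slc3a2 between -0.099 and 0.075, Slc7a8 between -0.071 and 0.606 and Slc9a8 between -0.081 and 0.00060. Replicate numbers 1 and 3 occur in both groups, and the deviations of same-numbered libraries from their group means had correlations of 0.0772 and -0.0414 across genes. Correlations from so few libraries cannot exclude a pairing by number, and the main fit used none. With the number as a block, which in effect compares replicates 1 and 3, 44 members and 5312 genes were called. Of the pathway genes given above, Rraga, Arl6ip5 and Castor2 lost their calls with the block (adjusted p = 0.0623, 0.0682 and 0.151 by limma). For transcript use 0 members passed adjustment with a minimum of 5 TPM a transcript or among members at 10 TPM in both groups. Without 1 library none could pass, since the smallest possible p is 0.0571 without a naive and 0.0952 without a CCl4 library. Unknown depth limits every value, low transcripts above all.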
